A study of Drosophila melanogaster with 8 samples.

Results

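The cytosolic ribosomal protein genes of the fly were followed in thoraces in which a constitutively active form of the transcription factor REPTOR was expressed in muscle. Members were chosen by symbol, as every gene written RpL, RpS or RpLP with a number and letters after it, plus sta (stubarista), which encodes a small subunit protein without such a symbol. This gave 88 of the 17562 genes in the tables, 50 of the large and 38 of the small ribosomal subunit. Of these, 18 form 9 pairs of duplicate genes whose symbols differ in a final a or b, 3 pairs of the large and 6 of the small subunit, and the other 70 are called single genes below, although some have distant relatives with a "-like" name that the rule left out.

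A ribosome takes up nearly every ribosomal protein in equal number, although the genes for these proteins are scattered over the genome, and their mRNAs are abundant in all growing cells. Loss of a single copy of many of these genes gives the Minute phenotype in the fly, with slow development and thin bristles. Growth signalling through the kinase TORC1 favours the translation of ribosomal protein mRNAs, and REPTOR is a bZIP transcription factor that active TORC1 keeps out of the nucleus.

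Poly-A RNA of adult male thoraces was sequenced in 4 control libraries (tub-Gal80ts; dMef2-GAL4 crossed to w[1118]) and 4 REPTOR[ACT] libraries (the same driver line crossed to UAS-REPTOR[ACT]), and the driver and the temperature-sensitive Gal80 repressor were therefore in both groups. The driver dMef2-GAL4 is active in muscle, whereas a dissected thorax also holds fat body, nerve, trachea and blood cells. According to the labels, flies were reared at 18 °C, held 3 to 4 days at that temperature as adults and shifted to 29 °C for 4 days, and each sample was made from 5 to 6 thoraces. The study's general methods for this driver give somewhat longer times for collecting and holding the adults, so fly age is known within days. The labels number the replicates 1 to 4 but do not say whether they were separate crosses, so the p-values measure the spread between these samples.

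Libraries held 26.79 to 50.03 M reads (M, 1e6), of which 30.4 to 42.2% came from the mitochondrial genome. REPTOR mRNA, the label check, averaged 105.5 ± 17.8 CPM (SD, n = 4) in control and 300.3 ± 28.4 CPM (SD, n = 4) in REPTOR[ACT] (log2 fold change 1.51). CPM here are counts per 1e6 reads after TMM scaling, which corrects for the make-up of each library. Of 10 genes of the contractile apparatus, the defining genes of the labelled tissue, 7 rose and 1 fell, and their summed level was 23832 to 25907 CPM in control and 31048 to 34415 CPM in REPTOR[ACT]. The sum hides large opposite changes, since mean Act88F rose from 382 to 3360 CPM and mean Mf fell from 7984 to 2375 CPM. In a whole thorax, fewer cells of a type and less RNA per cell cannot be told apart, and the part that a changed share of muscle RNA has in the results below was not tested. Summed levels of the markers of other cells were 3991 to 5499 CPM in control and 4493 to 6638 CPM in REPTOR[ACT] for 8 fat body genes, 592 to 703 and 572 to 653 CPM for 6 neuronal genes, 456 to 505 and 371 to 471 CPM for 5 blood cell genes, and 30.2 to 39.2 and 29.7 to 42.4 CPM for 4 tracheal genes, all with overlapping ranges and with no marker at 0 reads in all libraries. Of the tested markers, 2 of 5 fat body genes rose, 1 of 6 neuronal genes fell, 1 of 5 blood cell genes rose and 1 fell, and 1 of 4 tracheal genes fell. Over all genes tested, 24.8% rose and 19.4% fell. With so few markers, the counts for these other cells are no result about the cell types.

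The ribosomal protein mRNAs rose together in REPTOR[ACT] thoraces, each by a small amount. A gene is said to have risen or fallen where the quasi-likelihood test of edgeR gave it a p under 0.05 after Benjamini-Hochberg adjustment over all genes tested. Of 83 members with enough reads to be tested, 76 rose (91.6%), 0 fell and 7 did not pass the test, whereas 24.8% of all 9903 genes tested rose and 19.4% fell. Among genes outside the family with a mean level in the same range (33.8 to 1157 CPM), 28.4% of 3062 rose. At an unadjusted p under 0.05 there were 80 members, 79 of them higher and 1 lower, and DESeq2 called 77 as higher and 0 as lower.

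The size of the change was similar from member to member. The median log2 fold change was 0.45, or 1.37-fold, over the 82 members with a mean of at least 100 reads, against -0.01 over all genes tested and 0.01 over the other genes in the same range of levels. The SD of the fold changes was 0.124 among the 82 members and 0.493 among those other genes. Of the 82, 73 lay within 0.2 of their median, and a single member's SE was typically 0.0642. The 76 members that rose spanned 1.17-fold (RpLP1) to 1.66-fold (RpL34b). None changed by more than 1 on the log2 scale, a limit that 6.88% of all genes tested passed together with the adjusted p.

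**Figure D1:**
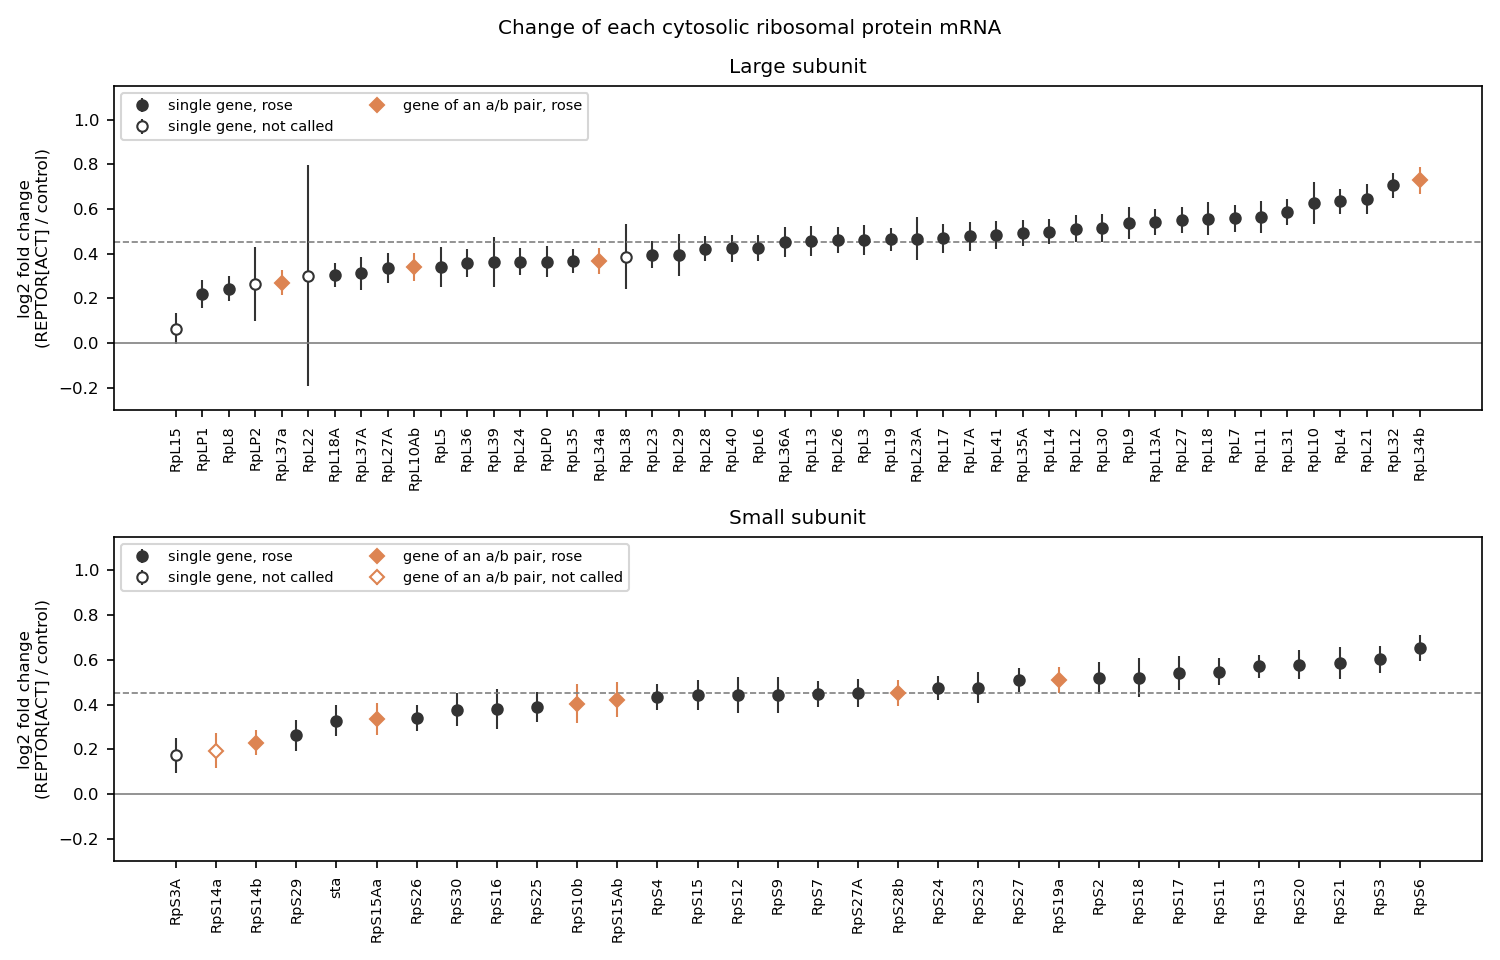
Log2 fold change of 80 of the 82 members with at least 100 reads (y axis; points, estimate; bars, 1 SE), in order of size within the large (top) and the small subunit (bottom); black circles are single genes, orange diamonds genes of a/b pairs, open symbols members that did not pass the test, and the dashed line is the median of 0.45. Most points crowd around the dashed line, RpL34b and RpL32 lie highest, RpL15 lies near 0, and the bar of RpL22 is by far the widest.

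In 76 of the 83 members tested, the lowest REPTOR[ACT] library was above the highest control, and these were the same 76 that rose. Over all genes tested this pattern was found for 23.6%, close to the 24.8% that rose. It therefore restates the calls and is no separate support for them. As a share of all reads, ribosomal protein mRNAs made up 3.36, 2.90, 3.25 and 3.05% in control replicates 1 to 4 and 4.24, 4.08, 4.57 and 4.38% in REPTOR[ACT] replicates 1 to 4. As a share of reads outside the mitochondrial genome they made up 4.82, 4.77, 5.30 and 5.27% in control and 6.39, 6.20, 6.68 and 6.56% in REPTOR[ACT]. The groups did not overlap on either scale. The mitochondrial share of reads ran from 30.4 to 42.2% in control and from 31.6 to 34.1% in REPTOR[ACT], so these groups did overlap.

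Libraries within a group also shifted as a block. Control replicates 1 and 2 were lowest of the controls for 40 and 32 of the 82 members, control replicate 4 was highest for 53 and control replicate 3 for 24. Among REPTOR[ACT] libraries, replicate 3 was highest for 60 members and replicate 2 lowest for 40. The median member differed by 0.51, 0.48, 0.45 and 0.37 on the log2 scale between the REPTOR[ACT] and control libraries numbered 1, 2, 3 and 4. In each of these 4 comparisons at least 80 of the 82 members were higher in REPTOR[ACT].

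**Figure D2:**
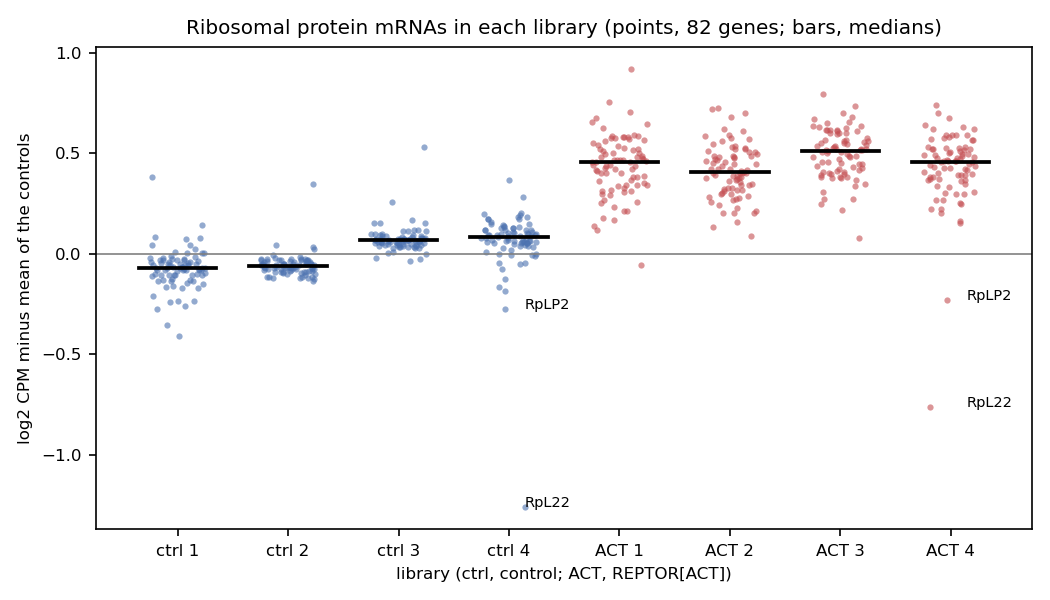
Log2 CPM of 82 members in each library minus the mean log2 CPM of the same gene in the 4 controls (points, genes; bars, library medians), with control in blue and REPTOR[ACT] in red. Every REPTOR[ACT] median lies above every control median, controls 1 and 2 sit below controls 3 and 4, and RpL22 stands far below the other genes in replicate 4 of both groups, with RpLP2 next.

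Both subunits gave nearly the same counts and medians. Of the large subunit genes 44 of 48 tested rose, with a median log2 fold change of 0.46, and of the small subunit genes 32 of 35 tested rose, with a median of 0.45. Among members with at least 100 reads the medians differed by 0.0061 on the log2 scale, and by -0.0223 to 0.0118 with a library left out. Large subunit mRNAs took 62.3, 62.2, 62.3 and 61.8% of the ribosomal protein reads in control and 62.3, 62.5, 61.9 and 61.6% in REPTOR[ACT], and these ranges overlapped. The mean was 62.2% ± 0.217 in control and 62.1% ± 0.411 in REPTOR[ACT] (SD, n = 4 each), a difference smaller than either SD.

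Levels per length of transcript covered a wide range among members and were almost the same in order in both groups. In control thoraces the median was 385 CPM per kb of merged exon, from 39.9 for RpS15Ab to 1316 for RpL41, the gene of the shortest ribosomal protein. RpL22 (97.5 CPM per kb), RpL34a (113) and RpS14b (174) were also near the low end, and RpS27A (909), RpLP1 (892) and RpL39 (866) near the high end. Across the 82 genes, log2 CPM in control and in REPTOR[ACT] had a Pearson r of 0.99 and a Spearman rho of 0.98. The log2 fold change had an r of -0.03 (rho -0.06) with the control level per kb and an r of -0.02 (rho -0.00) with the exon length. These are descriptions over genes measured in the same 8 libraries.

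**Figure D3:**
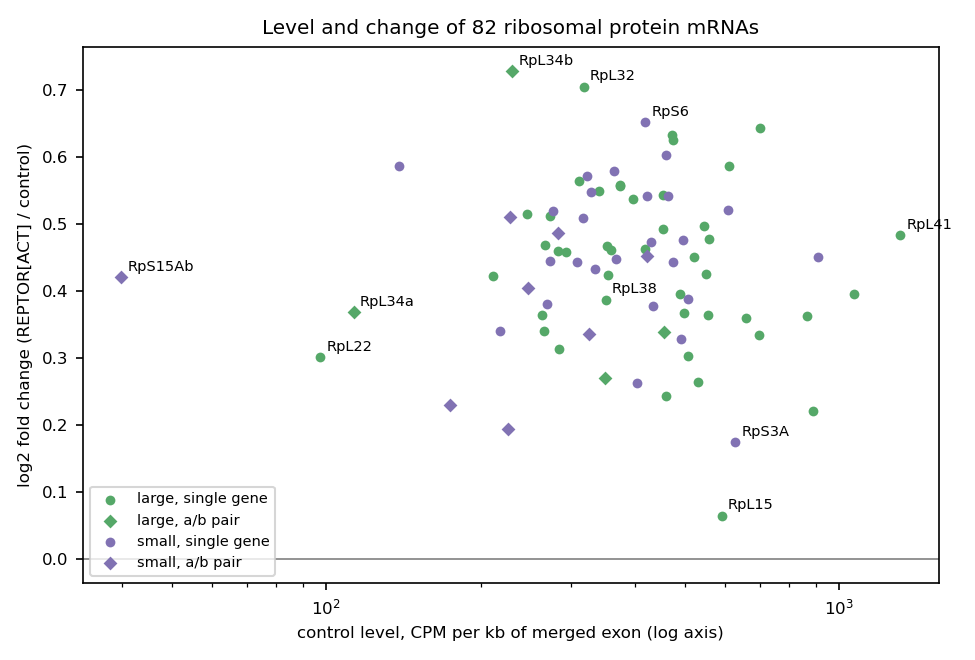
Log2 fold change (y axis) of 82 members against their mean level in control thoraces (x axis, CPM per kb of merged exon, log scale), with large subunit genes in green, small subunit genes in purple, single genes as circles and genes of a/b pairs as diamonds. Points form a flat band along the level axis (r -0.03), from RpS15Ab at the left to RpL41 at the right, and all lie above 0.

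The largest change of a single gene was that of RpL32, known as rp49, a large subunit gene on chromosome 3R (30045229 to 30046161 in BDGP6.54). For qRT-PCR of thoraces the study took either a-tubulin or rp49 as the reference gene. Its methods do not say which of them served for REPTOR[ACT] thoraces. RpL32 measured 251, 239.7, 262 and 259.7 CPM in control replicates 1 to 4 and 413, 405, 421 and 411 CPM in REPTOR[ACT] replicates 1 to 4. The groups did not overlap, and the libraries within each group were close to each other. The log2 fold change was 0.71 (SE 0.0546, edgeR adjusted p = 1.5e-06), which leaves RpL32 0.25 above the median member. The mean level of RpL32 was thus 1.63-fold higher in REPTOR[ACT].

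RpS6, the small subunit protein that S6 kinase phosphorylates downstream of TORC1, was the highest of the small subunit. Its level was 476, 473, 527 and 528 CPM in control and 784, 770.3, 797 and 799.7 CPM in REPTOR[ACT], a log2 fold change of 0.65 (SE 0.0592, edgeR adjusted p = 5.0e-06). Among the other single genes that led the order, RpL21 rose by 0.64 (SE 0.0668), RpL4 by 0.63 (SE 0.0550) and RpL10 by 0.63 (SE 0.0948) on the log2 scale. RpL10, a protein that joins the large subunit late in its maturation, varied more between controls (485, 566, 629.9 and 659 CPM) than between REPTOR[ACT] libraries (873, 826, 944 and 969 CPM).

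Fold changes were also read for mRNAs of proteins that work side by side, in the exit tunnel (3 genes) and the stalk (4 genes). Their SD on the log2 scale was 0.137 in the exit tunnel and 0.129 in the stalk described below, against 0.124 over the 82 members. No test was made of these differences. Sets this small, with large SEs for RpL39 (0.112) and RpLP2 (0.165), do not show how alike neighbouring proteins are in general. RpL4, RpL17 and RpL39 line the exit tunnel for the new polypeptide, and they rose by 0.63, 0.47 and 0.36 on the log2 scale. RpL39 was the least certain of these, with 192, 239, 266 and 299.7 CPM in control against 325, 312, 324 and 321 CPM in REPTOR[ACT] (adjusted p = 0.0228 by edgeR). The call was lost without control replicate 2 (edgeR adjusted p = 0.0502) or without REPTOR[ACT] replicate 1 (edgeR adjusted p = 0.0537).

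The stalk of the large subunit recruits the elongation factors. RpLP0, at its base, rose by 0.36 and RpL12, beside it, by 0.51. RpLP1 rose by 0.22 (SE 0.0631, edgeR adjusted p = 0.0145), the smallest change among members that passed the test, from 669.8, 631, 717 and 721 CPM to 793, 788, 846 and 765 CPM. Its partner RpLP2 did not pass (0.26, SE 0.165, edgeR adjusted p = 0.226) and measured 311, 328, 380.2 and 263 CPM in control and 426, 398, 445 and 271 CPM in REPTOR[ACT]. Replicate 4 was the lowest of its group on both sides. With the replicate number as a block RpLP2 passed (0.25, edgeR adjusted p = 0.00766), as it did without REPTOR[ACT] replicate 4 (0.40, edgeR adjusted p = 0.0155). Neither DESeq2 nor limma-voom called RpLP2.

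RpL5 and RpL11, which carry the 5S ribosomal RNA into the large subunit, rose by 0.34 and 0.56. RpL40 and RpS27A, each made as a fusion to ubiquitin, rose by 0.42 and 0.45. The small subunit gene sta rose by 0.33 (SE 0.0710), from 619, 602, 691 and 719 CPM in control to 811, 777, 852 and 864 CPM in REPTOR[ACT]. Toward the low end of the single genes that rose were RpL8, a protein near the peptidyl transferase centre (0.24), and RpS29 (0.26), both without overlap between the groups.

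RpL15 was the member whose level differed least. It measured 548, 589, 649 and 619 CPM in control and 577, 638, 633 and 667 CPM in REPTOR[ACT], and the groups overlapped over most of their ranges. The log2 fold change was 0.06 (SE 0.0696, edgeR adjusted p = 0.479), 0.39 below the median member. RpL15 was singled out as the lowest of the 82 members, and its distance from the median was not tested. Its value stayed between 0.02 and 0.11 when each library was left out in turn. RpL15 lies at the centromere end of the chromosome arm 3L (27267255 to 27268445 in BDGP6.54).

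RpS3A, the single member on chromosome 4, also missed the threshold. It had 716, 864, 887 and 923 CPM in control and 916, 942, 982 and 985 CPM in REPTOR[ACT] (log2 fold change 0.17, SE 0.0783, edgeR adjusted p = 0.0939), and control replicate 4 lay just above the lowest REPTOR[ACT] library. The replicate block brought it past the threshold (0.18, edgeR adjusted p = 0.0191), whereas the log2 fold change was 0.10 without control replicate 1 (edgeR adjusted p = 0.218). The 94 other genes tested on chromosome 4 had a median log2 fold change of -0.20, while the medians of other genes on the remaining chromosome arms were between -0.02 and -0.00. Members on 2L, 2R, 3L and 3R had medians of 0.45, 0.45, 0.44 and 0.51, and those on X, where 13 of 15 rose, a median of 0.37.

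RpL38, whose loss in the mouse disturbs the pattern of the axial skeleton, had the size of a typical member but a wide spread in control. Its level was 262, 322, 387 and 449 CPM in control and 440.0, 437, 491 and 490.0 CPM in REPTOR[ACT], so that control replicate 4 fell within the REPTOR[ACT] range. The log2 fold change of 0.39 (SE 0.146) missed the threshold with edgeR (adjusted p = 0.0565). It passed with the replicate block (0.41, edgeR adjusted p = 0.0102), with DESeq2 (0.38, adjusted p = 0.0196), with limma-voom (0.41, adjusted p = 0.0464), with total library size as the scale (0.43, edgeR adjusted p = 0.00516) and without control replicate 4 (0.53, edgeR adjusted p = 0.00642). It missed with DESeq2 size factors as the scale (edgeR adjusted p = 0.0519) and with TMM scaling without mitochondrial genes (edgeR adjusted p = 0.0593). RpL38 also missed without the filter (edgeR adjusted p = 0.108) and with rounded values (edgeR adjusted p = 0.0585). Leaving out any library other than control replicate 4 gave edgeR adjusted p = 0.0601 to 0.132.

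RpL22 differed between libraries more than any other well measured member. It measured 126, 123, 139.8 and 40.4 CPM in control and 183, 159, 129.6 and 57.0 CPM in REPTOR[ACT], with replicate 4 of both groups far below the rest, at 32.0% and 35.8% of the median of the other 3 libraries. The log2 fold change of 0.30 had an SE of 0.494 (edgeR adjusted p = 0.657) and ran from 0.04 without control replicate 4 to 0.55 without REPTOR[ACT] replicate 4. Among 6070 genes that averaged 10 CPM or more, 3 were more than 2-fold below the median of the other libraries in replicate 4 of both groups, namely RpL22, Ret and CG15369, and 0 were more than 2-fold above it. RpL22 lies on X (762560 to 765130 in BDGP6.54) and shares 377 exon bases with lncRNA:CR42491 on the same strand. The coefficient of variation of RpL22 was 42.1% in control and 41.4% in REPTOR[ACT], against medians over the 82 members of 6.41% and 3.80%.

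**Figure D4:**
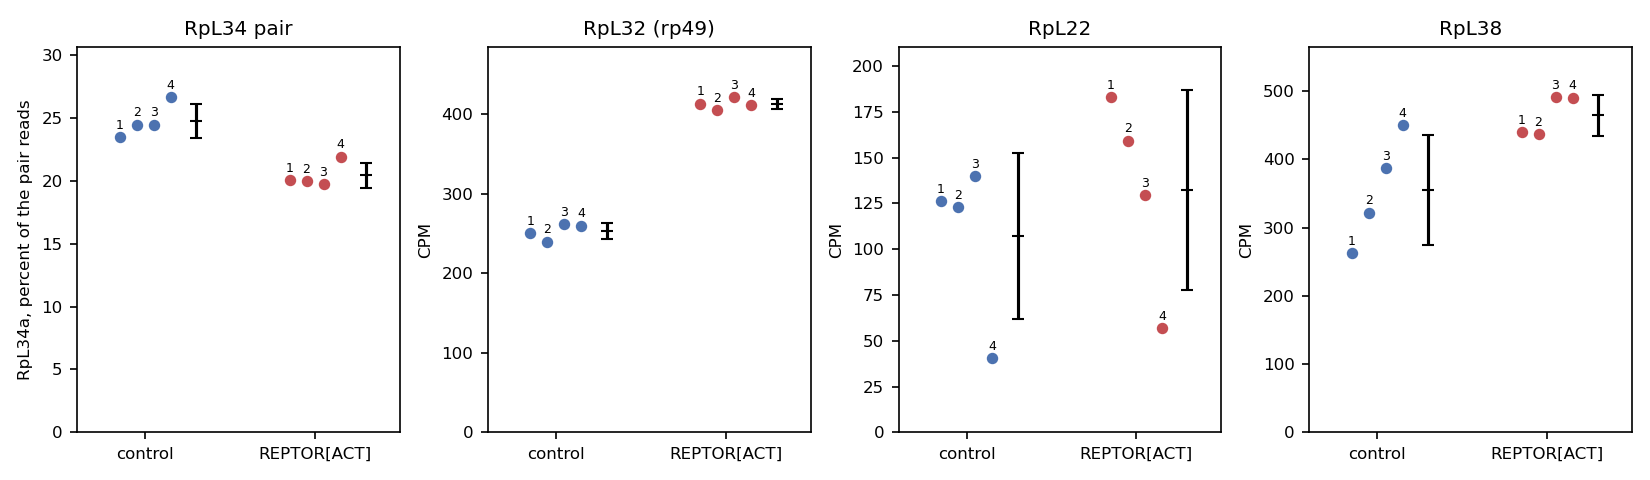
From left to right, the percentage of RpL34 pair reads on the a copy, and the CPM of RpL32, RpL22 and RpL38, in each library (points, numbered by replicate, with control in blue and REPTOR[ACT] in red, and bars for the mean ± SD, n = 4). All y axes start at 0. The groups are apart for the RpL34 share and for RpL32, replicate 4 is lowest in both groups for RpL22, and control replicate 4 of RpL38 falls within the REPTOR[ACT] range.

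The duplicate genes fell into 2 kinds. In 6 of the 9 pairs nearly all reads came from 1 copy, and the other copy had under 25 reads in every library. RpL10Aa and RpS28a had 0 reads in all 8 libraries, which allows up to 3 reads in each, or 0.0626 to 0.114 CPM. RpL37b had 9 reads over the 8 libraries, RpS19b 18 and RpS10a 21, and these 5 genes were too low to test. Duplicate copies of this kind are known from the germline of the fly. In these thoraces 10 germline marker genes together had 1.59 to 1.96 CPM in control and 1.97 to 2.54 CPM in REPTOR[ACT]. Whether this bears on the copies with few reads was not tested.

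The copies that supplied the reads of these 6 pairs all rose. Among them, the log2 fold changes were 0.27 for RpL37a, 0.34 for RpL10Ab, 0.40 for RpS10b, 0.45 for RpS28b and 0.51 for RpS19a. Copies with few reads also differed in structure. Of the lower copies of all 9 pairs, 5 have a single merged exon, among them 4 of the 6 with under 25 reads, whereas each of the 9 higher copies has at least 2. A single exon was otherwise found in 1 member, RpLP2. The higher copy lies on X in 7 pairs and the lower copy in 1.

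**Figure D5:**
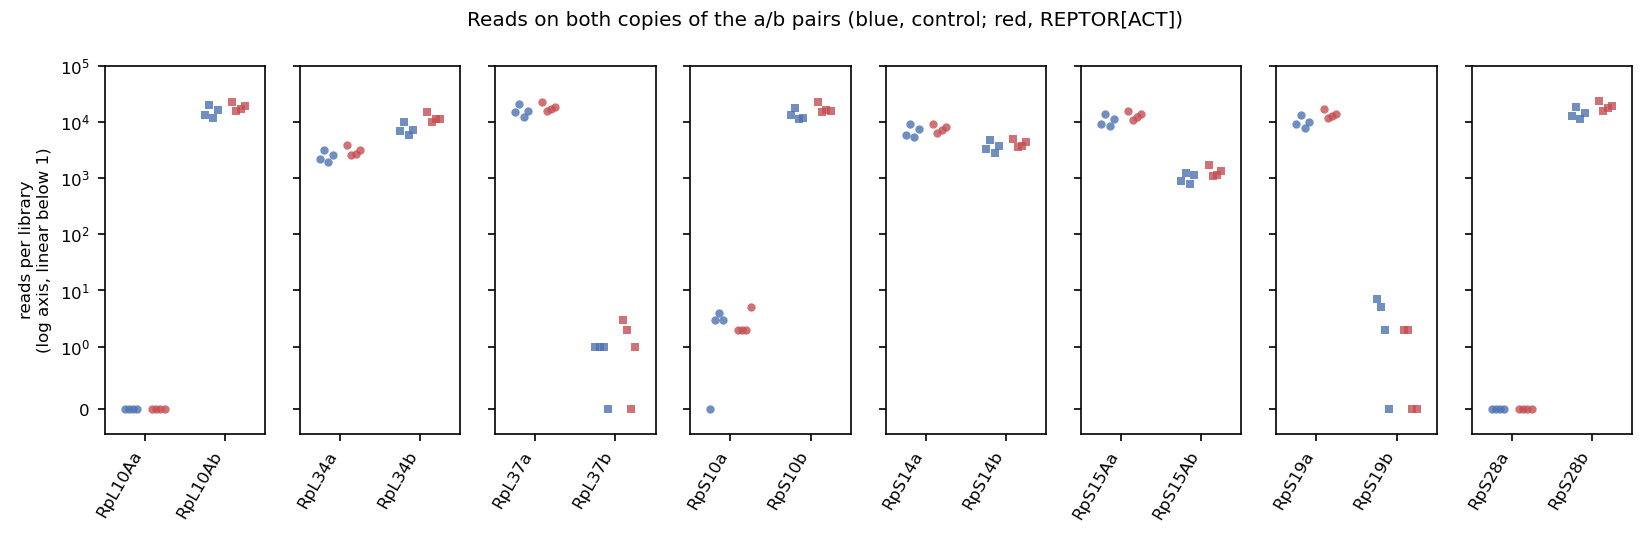
Reads per library on both copies of 8 of the 9 a/b pairs (y axis, log scale, linear below 1), with the a copy as circles, the b copy as squares, control in blue and REPTOR[ACT] in red. Both copies have well over 100 reads in RpL34, RpS14 and RpS15A, and in the other 5 pairs shown 1 copy stays under 25 reads.

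RpL34, RpS14 and RpS15A were the 3 pairs with both copies expressed. RpL34a and RpL34b lie far apart on 3R (26058420 to 26059267 and 9400237 to 9401226 in BDGP6.54), and RpL34a took 22.1% of the pair's reads over all libraries. RpL34b had 214, 209, 225 and 206 CPM in control and 359.7, 354, 371 and 331 CPM in REPTOR[ACT], the largest fold change of any member (0.73, SE 0.0595, edgeR adjusted p = 2.2e-06). RpL34a had 65.8, 67.5, 72.8 and 74.9 CPM in control and 90.3, 88.1, 91.3 and 92.9 CPM in REPTOR[ACT] (0.37, SE 0.0594, edgeR adjusted p = 0.000397). Both copies rose, the b copy by more.

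The share of RpL34 reads on the a copy, a ratio within a library that depth and scaling do not touch, was 23.5, 24.4, 24.4 and 26.6% in control replicates 1 to 4 and 20.1, 19.96, 19.7 and 21.9% in REPTOR[ACT] replicates 1 to 4. The means were 24.7% ± 1.34 and 20.4% ± 0.998 (SD, n = 4), a difference of -4.33 percentage points, and the share was lower in each REPTOR[ACT] library than in each control. A two-sided exact permutation test gave p = 0.0286, the smallest that 4 against 4 libraries allow, and 0.114 after Benjamini-Hochberg adjustment over the 4 pairs compared. With the replicate number as a block, an exact permutation of signs over the 4 numbers gave p = 0.125, again the smallest possible. Replicate 4 had the highest share in both groups.

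RpS14a and RpS14b lie next to each other on X (7933742 to 7934677 and 7934898 to 7935792 in BDGP6.54), and RpS14b took 34.7% of their reads. RpS14b rose by 0.23 (SE 0.0564, edgeR adjusted p = 0.00614), from 100.2, 99.9, 108 and 108 CPM to 118, 122, 124 and 125 CPM. RpS14a measured 176, 189, 206 and 222 CPM in control and 217, 217, 239 and 234 CPM in REPTOR[ACT], with control replicate 4 inside the REPTOR[ACT] range (0.19, SE 0.0782, edgeR adjusted p = 0.0640). It passed with the replicate block (0.20, edgeR adjusted p = 0.00763), without control replicate 4 (0.26, edgeR adjusted p = 0.0197) and without REPTOR[ACT] replicate 2 (0.23, edgeR adjusted p = 0.0434). Neither DESeq2 nor limma-voom called RpS14a. The a share was 65.5% ± 1.47 in control and 65.0% ± 0.787 in REPTOR[ACT] (SD, n = 4), a difference of -0.50 points (exact permutation p = 0.6).

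RpS15Aa and the single-exon RpS15Ab rose by 0.34 (SE 0.0728) and 0.42 (SE 0.0778). RpS15Ab took 8.87% of the pair's reads and had 26.8, 26.2, 29.7 and 33.0 CPM in control and 40.7, 38.1, 37.8 and 38.0 CPM in REPTOR[ACT]. The share of the a copy was 91.4% ± 0.412 and 90.9% ± 0.740 (SD, n = 4), a difference of -0.51 points (exact permutation p = 0.286, 0.381 after adjustment over the 4 pairs). The copies of RpS14 are known to encode the same protein and copies of other pairs can share stretches of sequence. How the counting dealt with reads matching both copies is unknown here, so the split of reads within a pair is uncertain.

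As a group, the 12 pair genes with at least 100 reads had a median log2 fold change of 0.39, with 11 of them called as higher, against 0.46 for the 70 single genes, of which 65 rose. In 7 of the 9 pairs the higher copy lies on X, where members had a median of 0.37. Copy class and chromosome are therefore mixed in this comparison. The medians of single and pair genes differed by 0.0733, and by 0.0596 to 0.0999 with a library left out. No test was made of this difference.

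Some members share exon bases with a neighbour, and since it is unknown here whether reads were counted by strand, those of the shared stretch cannot be assigned with certainty. RpL27 and Idh3g, which encodes a subunit of mitochondrial isocitrate dehydrogenase, share 158 bases on opposite strands. Idh3g fell from 731 ± 24.2 to 559 ± 53.6 CPM (SD, n = 4) while RpL27 rose, from 320.1, 320.2, 346 and 359 CPM in control to 495, 479, 498 and 497 CPM in REPTOR[ACT] (0.55, SE 0.0588). RpL12 and RpL39 share 8 bases with each other.

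Other genes of translation were read from lists outside the family. Of 15 translation factors and associated proteins whose mRNAs are known in animals to carry the TOP motif of TORC1-sensitive translation, 11 rose and 0 fell, with a median log2 fold change of 0.30. Over all genes tested, 24.8% rose and 19.4% fell, with a median of -0.01. The elongation factors eEF1beta (0.81) and eEF2 (0.54), the translationally controlled tumour protein Tctp (0.48) and Rack1, which sits on the small subunit (0.37), were among those that rose. The initiation helicase eIF4A (-0.01), the poly-A binding protein pAbp (0.03), eEF1delta (0.15) and eEF1alpha1 (-0.11) did not pass the test. Of 5 genes named as relatives of ribosomal proteins but outside the rule, RpL24-like, a large subunit assembly factor, rose from 85.6 ± 12.7 to 558 ± 28.8 CPM (SD, n = 4), or 2.71 on the log2 scale. RpLP0-like rose from 9.47 to 20.4 CPM (1.11), and RpL22-like, RpL7-like and RpS28-like had 1, 0 and 12 reads over all 8 libraries.

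Of 12 genes known to regulate ribosomal protein genes or the response to their loss, 4 rose and 3 fell, with a median of 0.04. These counts are near the 24.8% and 19.4% found over all genes tested and are no result about the list. Those that rose were the growth regulator Myc (0.56), the S6 kinase S6k (0.52), the TBP-related factor Trf2, which serves ribosomal protein promoters in the fly (0.43), and Irbp18 (1.19), the bZIP partner of Xrp1. Xrp1, which is induced in cells short of a ribosomal protein, fell by 0.39, and Dref, a promoter-binding factor, fell by 0.20. The promoter-binding factor M1BP (-0.02) and Tor, the kinase of TORC1 (-0.01), did not pass the test.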

How the data were processed

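Poly-A RNA-seq of 8 thorax samples was used, 4 control and 4 REPTOR[ACT], grouped by genotype in the labels. According to the study's methods the authors prepared libraries with the KAPA mRNA HyperPrep workflow, sequenced single reads of 75 bases in 4 pools on a NextSeq 500 instrument, mapped these to the FlyBase genome (dmel r6.30) by STAR 2.7.2b and used DESeq2 for the tests. The labels instead name a TruSeq kit and a mouse build. How reads were counted per gene (program, strand, reads with several matches) is not given in the sources read.

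The deposited values are expected counts per gene, not scaled for depth. All of them were multiples of 0.25 (within 1e-06), which averaging over 4 pools would produce, an origin inferred from the values. They were multiplied by 4 and used as read counts. Totals were 26.79 to 50.03 M reads (M, 1e6). A count of 0 allows up to 3 reads, 0.0626 to 0.114 CPM, for counting error only. Gene structure came from the Ensembl annotation of BDGP6.54 (17506 of 17562 identifiers matched).

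Genes passing filterByExpr (9903) were tested with edgeR 4.0.16 (TMM, robust quasi-likelihood, Benjamini-Hochberg over all genes) with no covariate. Each SE was the fold change divided by the root of the F value. DESeq2 1.42.0 and limma 3.58.1 in R 4.3.3 were alternatives, as were other scalings, no filter, rounded values, a replicate block and leaving out each library. Shares of the a copy were compared by exact permutation in Python 3.11.15 for pairs with a mean of at least 10 reads per library on each copy. The packages numpy 2.4.6, scipy 1.17.1 (for Spearman rho), pandas 2.3.3 and matplotlib 3.10.9 were also used.

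Named genes followed a rule, apart from members not reported here: all pair genes, RpL32, RpS6, sta, the stalk, 5S, ubiquitin fusion and exit tunnel proteins, the 5 highest and 5 lowest single genes and every member not called or not tested. The rule gives 40 genes, not all of which are named. RpL41, RpL27 and genes outside the family that share exons, or that were low in replicate 4, were named after their values were seen. The members and lists were chosen with earlier results of these data known. Some members entered the counts and medians but are not reported here by name. Promoter motifs and sequences were not analysed here.

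Libraries with the same number deviated together across the groups, with correlations of 0.138, 0.433, 0.220 and 0.137 for replicates 1 to 4. Control replicate 3 correlated as much with REPTOR[ACT] replicate 4 (0.221) as with REPTOR[ACT] replicate 3. Control replicate 4 correlated more with REPTOR[ACT] replicate 3 (0.168) than with REPTOR[ACT] replicate 4. The correlations thus do not show that the numbers pair replicates 3 and 4. The numbers were used as the block of an alternative fit, although the labels do not say what they share.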

Additional observations from a re-analysis of the deposited data

Results flagged for a closer look

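Among 84 sets of 4 libraries (members' CPM in each group, and shares of the a copy), 4 had 1 library that stood apart from the other 3 beyond Dixon's limit of 0.829, and chance gives about 1 in 20. RpL22 measured 40.4 CPM in control replicate 4, against 123 to 139.8 CPM in the other controls. RpS15Ab measured 40.7 CPM in REPTOR[ACT] replicate 1, against 37.8 to 38.1 CPM in the other 3. RpS19a measured 434 CPM in REPTOR[ACT] replicate 3, against 398 to 402 CPM. The share of RpL34 reads on the a copy was 21.9% in REPTOR[ACT] replicate 4, against 19.7 to 20.1%. The groups of RpS15Ab, RpS19a and the RpL34 share do not overlap with these libraries included.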

How the results depend on the processing

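The number of members that rose was 76 to 80 under every other scaling, filter, test or block, and 75 to 78 with each library left out. With an absolute log2 fold change over 1 asked for as well, 0 rose. The number that fell was 0 to 1 with a library left out, the 1 being without REPTOR[ACT] replicate 3. The median log2 fold change was 0.43 to 0.49 with a library left out. The subunit medians differed by -0.0223 to 0.0118, so their order depended on the libraries used, and those of single and pair genes by 0.0596 to 0.0999. Without replicate 4 of both groups, a choice made after seeing the data, 78 members rose, with a median of 0.49.

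The replicate block gave 80 members that rose, adding RpL38, RpLP2, RpS14a and RpS3A, and changed no other call of a member by edgeR. For the share of the a copy of RpL34 (-4.33 points) the block's p of 0.125 is the smallest that an exact permutation of 4 signs gives. With 1 library left out the difference was -4.82 to -3.70 points for RpL34, -1.10 to 0.103 for RpS14 (0.103 without control replicate 4) and -0.744 to -0.193 for RpS15A. The cause of these shifts was not tested. Depth limits the copies with under 25 reads, most of which were too low to test for a change of expression.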
